A study of Mus musculus with 4 samples.

Results

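Nobox, Figla, Sohlh1, Sohlh2 and Lhx8 encode transcription factors of the mouse oocyte, and they were taken by gene symbol as 5 of the 24411 genes listed in each library. The transcripts were measured in late two-cell stage embryos of the ICR strain, produced by in vitro fertilization and collected at 36 hpi. Control embryos (10074-G5 (−)) were cultured with DMSO, the solvent, and treated embryos with 6 µM of 10074-G5, a small molecule that binds MYC and prevents its pairing with MAX. Each group had 2 libraries of polyadenylated RNA, each made from 10 pooled embryos, and both groups were of the same strain and were produced and cultured by the same protocol. The start of treatment is 3 hpi in the sample labels, but 6 hpi in the description of the series and in the paper. A library is an average over its embryos, so fewer embryos holding a transcript and less of it per embryo cannot be told apart.

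During oogenesis these factors act in a cascade. SOHLH1 and SOHLH2 are basic helix-loop-helix proteins of early oocytes and spermatogonia that act upstream of Lhx8, Figla and Nobox. FIGLA, another basic helix-loop-helix protein, is needed for primordial follicles to form and switches on the zona pellucida genes, whereas the LIM homeobox protein LHX8 and the homeobox protein NOBOX drive oocyte growth genes such as Gdf9, Bmp15 and Pou5f1. Fully grown oocytes pass stored transcripts of many of their genes to the embryo, and these are degraded as the embryonic genome is activated.

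The promoters are shown because MYC–MAX heterodimers and helix-loop-helix oocyte factors both bind E-boxes, CANNTG, of which CACGTG is the form MYC–MAX prefers. Of the 5 promoters from RefSeq (GRCm38.p6), each covering 250 bases before to 50 bases after the annotated start, the 3 printed are those of Nobox and Lhx8, whose groups did not overlap, and of Sohlh1, the member with CACGTG. Capitals mark CANNTG, searched on both strands, and CACGTG is one of its forms.
Nobox, chr6:43309505-43309804, minus strand: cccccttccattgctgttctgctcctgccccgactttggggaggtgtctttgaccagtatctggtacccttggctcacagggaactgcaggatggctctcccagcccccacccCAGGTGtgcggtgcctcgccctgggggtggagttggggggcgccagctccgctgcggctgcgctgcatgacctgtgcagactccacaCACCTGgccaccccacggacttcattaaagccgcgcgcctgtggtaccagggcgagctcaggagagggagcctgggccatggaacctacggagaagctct
Lhx8, chr3:154330511-154330810, minus strand: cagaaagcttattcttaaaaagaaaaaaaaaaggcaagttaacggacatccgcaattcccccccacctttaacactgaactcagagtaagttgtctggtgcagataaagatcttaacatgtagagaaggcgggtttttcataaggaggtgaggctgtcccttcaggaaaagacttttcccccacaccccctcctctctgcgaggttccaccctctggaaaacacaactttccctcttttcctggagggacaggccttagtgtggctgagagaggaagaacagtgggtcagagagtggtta
Sohlh1, chr2:25847199-25847498, minus strand: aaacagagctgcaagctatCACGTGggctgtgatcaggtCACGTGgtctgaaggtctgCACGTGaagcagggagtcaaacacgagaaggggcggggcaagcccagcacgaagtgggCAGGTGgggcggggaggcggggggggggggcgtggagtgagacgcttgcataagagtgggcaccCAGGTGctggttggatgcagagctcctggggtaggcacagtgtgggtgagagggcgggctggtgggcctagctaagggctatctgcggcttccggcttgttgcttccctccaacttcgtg
The Sohlh1 promoter held 5 matches to CANNTG, of which 3 were CACGTG, beginning 231, 211 and 192 bases before the start. CACGTG was found in 7.15% of 32851 promoters of the same length, and at least 3 copies in 29 of them (0.0883%). The Nobox promoter held 2 E-boxes, beginning 137 and 50 bases before the start, and the Lhx8 promoter held none. Figla had 4 matches to CANNTG and Sohlh2 had 1, against at least 1 match in 72.3% and at least 3 in 17.6% of all promoters. Those of Figla began 173, 164, -8 and -21 bases before the start, a negative value being after it. The Figla window, from 86016941 to 86017240, lies within the gene as annotated by GENCODE, which begins at 86016171. For Lhx8, on the minus strand, the GENCODE gene begins at 154330659, inside the window and ahead of the start used here. Homeodomain proteins such as NOBOX bind TAATTA, which 5.29% of all promoters held, or the like letters TAATTG, which 8.00% held, and none of the 5 windows held either of them. A match is a description of these letters and not a binding site.

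All 5 genes passed the filter on low counts and were tested with edgeR among 13549 genes. The totals of expected counts per library were between 18206600 and 20718700. DMSO replicate 1 stood apart from the other libraries: across tested genes its log2 CPM had a Pearson's r between 0.825 and 0.887 with them, against 0.912 to 0.931 among the other three. Markers of the two-cell stage, among them the Zscan4 and Tcstv genes, were found in every library, with a summed 1138 CPM in DMSO replicate 1 and between 3847 and 5347 CPM in the others. Of 7 markers of later stages, Cdx2 and Nanog had at most 4 counts in any library, Sox2 had 10 and 126 in control and 101 and 284 in treated embryos, and the list summed to 7.61 and 18.3 CPM in control and 17.3 and 27.8 CPM in treated embryos. The granulosa markers Foxl2, Amh, Inha, Inhba and Ptx3 had 0 counts in all 4 libraries. The 11 granulosa and cumulus markers summed to 1.44 and 7.10 CPM in control and to 11.6 and 4.34 CPM in treated embryos. Of these, Tnfaip6 had 0 and 95 counts in control and 93 and 38 counts in treated embryos. Cyp19a1 had 23 and 25 counts in control and 128 and 27 counts in treated embryos. Of 7 sperm markers, Prm1, Tnp2 and Gapdhs had 0 counts throughout. Prm2 had 10 and 27 counts in control and 111 and 39 counts in treated embryos. The list summed to 1.68 and 1.43 CPM in control and 5.43 and 2.86 CPM in treated embryos. The part of these markers in the results was not tested.

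Per length of transcript, Nobox and Lhx8 were the most abundant of the 5 genes and Sohlh1 and Sohlh2 the least. The mean over the 4 libraries was 25.2 ± 17.4 FPKM (SD over libraries, n = 4) for Nobox, 24.0 ± 17.0 FPKM for Lhx8, 5.86 ± 4.28 FPKM for Figla, 1.38 ± 1.49 FPKM for Sohlh1 and 0.815 ± 0.932 FPKM for Sohlh2. The ranges of neighbours in this order overlapped in every case. Nobox was above Lhx8 in 2 of 4 libraries, so these neighbours had no fixed order. Lhx8 was above Figla in 4 of 4 libraries, Figla above Sohlh1 in 4 of 4, and Sohlh1 above Sohlh2 in 3 of 4. Within a library, the ratio of Nobox to Lhx8 was 2.05 and 0.726 in DMSO replicates 1 and 2, and 0.934 and 1.34 in treated replicates 1 and 2.

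**Figure D1:**
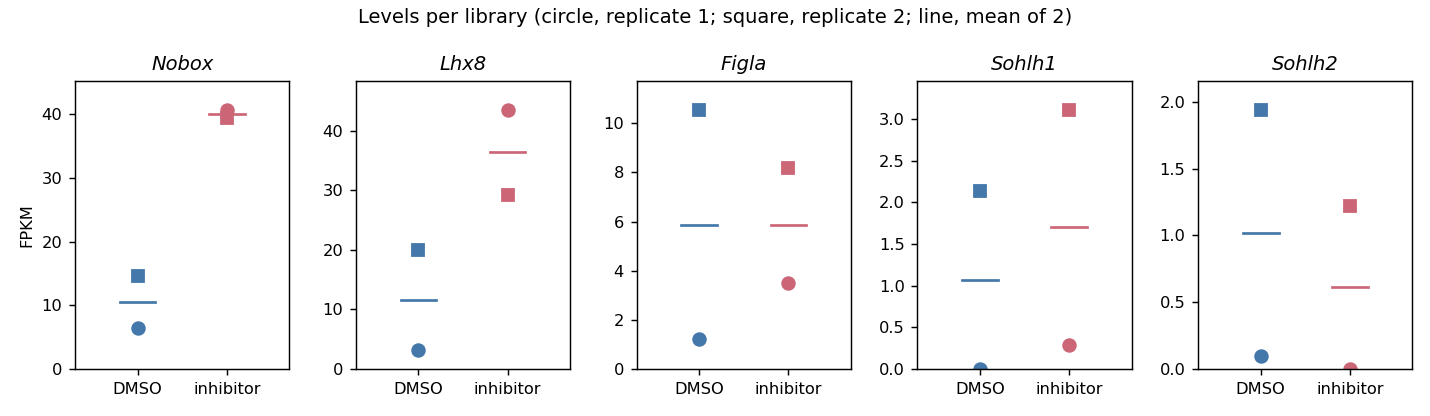
FPKM of each gene (vertical axis, from 0, a separate scale per gene) in control (DMSO) and treated (inhibitor) embryos, with circles for replicate 1, squares for replicate 2 and a line at the mean of the 2 libraries. Nobox and Lhx8 do not overlap between groups, with treated libraries at 39.3 to 40.7 FPKM and 29.3 to 43.6 FPKM, whereas Figla, Sohlh1 and Sohlh2 are higher in replicate 2 of each group.

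Nobox lies on chromosome 6 of GRCm38 from 43303674 to 43309554, on the minus strand, and overlaps no other annotated gene. Its level was 6.38 and 14.5 FPKM in control embryos (10.5 ± 5.77, SD, n = 2) and 40.7 and 39.3 FPKM in treated embryos (40.0 ± 0.962, SD, n = 2). Both treated libraries were above both control libraries, and the lower treated library was 2.65-fold above the higher control library in CPM, counts scaled to the normalized library total. The counts behind these values were 197 and 427 in control and 1365 and 1257 in treated embryos. The log2FC was 1.84 (standard error 0.46, 95% interval 0.76 to 2.92), and its adjusted p (Benjamini-Hochberg) was 0.333 in the quasi-likelihood test of edgeR. That adjusted p was the smallest given to any gene, but many genes shared it, among them Zp3 at an unadjusted edgeR p of 0.0407. In either direction edgeR called 0% of genes at |log2FC| > 1 and an adjusted p under 0.05. The unadjusted edgeR p of Nobox was 0.00468, and 15 of the 6973 genes with a positive log2FC had a p as small or smaller, Nobox included. By this p Nobox ranked 101 among all tested genes. Of all tested genes, 4.72% were higher and 10.1% were lower in treated embryos with an unadjusted p under 0.05.

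DESeq2, the tool of the study, called Nobox up-regulated when run on all 18208 genes with at least 1 count, where its adjusted p was 0.0132 at a log2FC of 1.84 (standard error 0.50). It called 0.478% of these genes up-regulated and 2.40% down-regulated. Of the other 4 members, Lhx8 was not called (adjusted p = 0.0983 by DESeq2). Figla, Sohlh1 and Sohlh2 were given no adjusted p by DESeq2 and so could not be called. Over all alternatives the adjusted p of Nobox ranged from 0.000884 to 0.992, the lowest without DMSO replicate 2 and the highest without treated replicate 1. Leaving out DMSO replicate 1, edgeR gave Nobox a log2FC of 1.46. In that fit DMSO replicate 2 is the only control library, so the spread comes from the treated libraries alone. The same limit holds for every value given without DMSO replicate 1. Of the 2999 tested genes with a mean between 20 and 80 CPM, the range that holds Nobox and Lhx8, 4 had a lower treated library at least as far above the higher control library as Nobox, Nobox included (0.133%). With 2 libraries against 2, an exact two-sided permutation test of a single gene cannot give a p under 0.333.

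Lhx8 lies on chromosome 3 from 154306294 to 154330659, on the minus strand, and also overlaps no annotated gene. Its level was 3.11 and 20.04 FPKM in control embryos (11.6 ± 12.0, SD, n = 2) and 43.6 and 29.3 FPKM in treated embryos (36.4 ± 10.1, SD, n = 2). The treated libraries were both higher, but the control libraries differed by 5.42-fold in CPM and the nearest libraries of the groups by 1.43-fold. The log2FC of 1.60 (standard error 0.74, 95% interval -0.12 to 3.33) was not significant by edgeR (adjusted p = 0.35, unadjusted p = 0.0637) or by DESeq2 (adjusted p = 0.0983). Without DMSO replicate 1 the log2FC was 0.86, and without DMSO replicate 2 it was 3.28. Over the alternatives the adjusted p of Lhx8 ranged from 0.000672 to 0.992. Among genes with a mean between 20 and 80 CPM, 8.40% had treated libraries at least as far above the control libraries as Lhx8. Nobox and Lhx8 were the 2 of 5 members whose groups did not overlap, both higher in treated embryos, where 28.9% of all tested genes did not overlap in this direction and 28.3% in the other.

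Figla lies on chromosome 6 from 86016171 to 86020996. It had 1.20 and 10.6 FPKM in control and 3.48 and 8.20 FPKM in treated embryos, from 11, 92, 35 and 78 counts. The groups overlapped completely, with both treated libraries between the control libraries. By edgeR the log2FC was -0.052 (standard error 1.10) with an adjusted p of 0.987, and the 95% interval from -2.63 to 2.52 leaves room for a change as large as that of Nobox in either direction.

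Sohlh1 lies on chromosome 2 from 25842995 to 25847248 and had 0 and 39 counts in control and 6 and 62 counts in treated embryos. These are 0 and 2.13 FPKM in control and 0.29 and 3.11 FPKM in treated embryos. The count of 0 in DMSO replicate 1 allows up to 3 counts, or 0.180 CPM. Sohlh2 lies on chromosome 3 from 55182028 to 55209957 and had 4 and 73 counts in control and 0 and 50 counts in treated embryos. These are 0.10 and 1.94 FPKM in control and 0 and 1.22 FPKM in treated embryos, and the count of 0 in treated replicate 1 allows up to 0.139 CPM. Both genes had at most 6 counts in replicate 1 of either group and at least 39 in replicate 2, so the groups overlapped. The log2FC was 0.64 for Sohlh1 (standard error 1.97, adjusted p = 0.89 by edgeR) and -0.78 for Sohlh2 (standard error 1.98, adjusted p = 0.865 by edgeR). The 95% intervals, -3.96 to 5.23 for Sohlh1 and -5.40 to 3.83 for Sohlh2, spanned 0, and any difference was within the spread between replicates.

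Figla, Sohlh1 and Sohlh2 shared a split by replicate number, since replicate 2 of both groups was above replicate 1 of both groups. This split was found in 16.0% of the 2279 tested genes with a mean between 1 and 3 CPM, the range that holds these 3 genes, and in 11.5% of all tested genes. In the same range 29.3% of genes differed by over 4-fold between the control libraries and 18.8% between the treated libraries, after adding 0.1 CPM. Between 20 and 80 CPM these shares were 5.10% and 0.200%. The labels do not say that a replicate number marks a shared litter or day.

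The genes with the most similar pattern were ranked by the distance between log2 CPM values centred on the mean of the 4 libraries. For Nobox they were Gm16386, Hdhd3 and Tcl1b2, at distances from 0.0797 to 0.166 on the log2 scale, and 142 tested genes lay within 0.5. For Lhx8 they were Gm1965, Gm11190 and Fbxl21, at 0.0749 to 0.101, with 164 genes within 0.5. The nearest gene was Gm4349 for Figla (0.0694) and Isl1 for Sohlh1 (0.232), with 29 and 4 genes within 0.5. Among the members, Nobox and Lhx8 were the closest pair, at 1.12, and Sohlh2 and Lhx8 the farthest, at 4.96. With 4 libraries many genes share a pattern, so these distances are only a description.

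The factors were then set beside 20 genes known to depend on at least 1 of them in the oocyte. All 20 target genes were tested, and 18 had a positive log2FC, with a median of 0.67, against 51.5% of tested genes and a median of 0.043. Of them, 4 had a positive log2FC with an unadjusted edgeR p under 0.05 and 1 a negative one, against 4.72% and 10.1% of all tested genes, and none had an adjusted p under 0.05 (smallest 0.333). The treated libraries were both above the control libraries for 13 of 20 target genes and both below for 1, Zp3, against 28.9% of all tested genes in the one direction and 28.3% in the other. Without DMSO replicate 1, 17 of 20 were positive, 16 of them among the 18 above. The median was then 0.37, against 0.058 over all genes tested in that fit. A positive log2FC was also found for all 9 two-cell markers (median 1.02) and all 5 tested markers of later stages (median 0.76). The 5 tested LIM homeobox relatives of Lhx8 were positive as well (median 1.17). With all libraries, a positive shift was therefore not particular to the target list. Among these markers and relatives, Tdpoz4 (-0.040), Sox17 (-0.16), Lhx6 (-0.42) and Isl1 (-0.55) were negative without DMSO replicate 1, and the rest stayed positive.

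Among secreted factors, Oosp1, which encodes an oocyte-secreted protein, had 555 and 1572 FPKM in control and 3691 and 2917 FPKM in treated embryos. Its log2FC of 1.56 (standard error 0.50) had an adjusted p of 0.333 by edgeR and 0.0281 by DESeq2, and was 1.08 without DMSO replicate 1. Gdf9, a growth factor that NOBOX activates, had 15.1 and 48.5 FPKM in control and 74.6 and 93.2 FPKM in treated embryos (log2FC 1.32, adjusted p = 0.333 by edgeR, 0.79 without DMSO replicate 1). Its partner Bmp15 had 69.9 and 334 FPKM in control and 504 and 461 FPKM in treated embryos, a log2FC of 1.20 that was 0.53 without DMSO replicate 1. Rfpl4, which encodes a RING finger protein of oocytes, had 199 and 430 FPKM in control and 598 and 660 FPKM in treated embryos, a log2FC of 0.93 (0.57 without that library). Nlrp14, a maternal NLR family gene, had a log2FC of 1.09 (adjusted p = 0.333 by edgeR), and 0.73 without DMSO replicate 1. For these 5 genes the treated libraries were both above the control libraries.

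The 3 zona pellucida genes that FIGLA switches on did not share a direction. Zp1 had 10.3 and 20.8 FPKM in control and 21.1 and 21.6 FPKM in treated embryos, and Zp2 had 11.6 and 35.8 FPKM in control and 52.1 and 45.5 FPKM in treated embryos. Zp3 had 205 and 75.1 FPKM in control and 59.0 and 65.1 FPKM in treated embryos. The log2FC was 0.36 for Zp1, 0.96 for Zp2 and -1.37 for Zp3, none past the adjusted threshold by edgeR. Without DMSO replicate 1 these values were 0.035 for Zp1, 0.45 for Zp2 and -0.27 for Zp3. Pou5f1, a pluripotency factor gene downstream of NOBOX and LHX8, had 4.75 and 13.2 FPKM in control and 16.7 and 14.2 FPKM in treated embryos, a log2FC of 0.73 that was 0.19 without DMSO replicate 1.

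As the target genes also varied between the control libraries, each factor was expressed relative to them in the same library. The centred median log2 CPM of the target list was -1.07 and 0.07 in control and 0.42 and 0.47 in treated embryos. Relative to this median, Nobox was at -0.35 and -0.55 in control and at 0.57 and 0.44 in treated embryos. Treated embryos had a mean of 0.51 ± 0.090 (SD, n = 2) against -0.45 ± 0.14 (SD, n = 2) for control embryos. The difference of 0.96 was larger than the spread between replicates. The share of all tested genes with such a difference was not computed. Lhx8 was at -1.15 and 0.13 in control and at 0.89 and 0.24 in treated embryos. Its groups were separate only by the gap between 0.13 and 0.24, less than the spread between the control libraries. Relative to the median of the same 20 genes, which depend on any of the factors, Figla was at -0.48 and 1.09 in control and at -0.80 and 0.30 in treated embryos, so its groups overlapped.

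**Figure D2:**
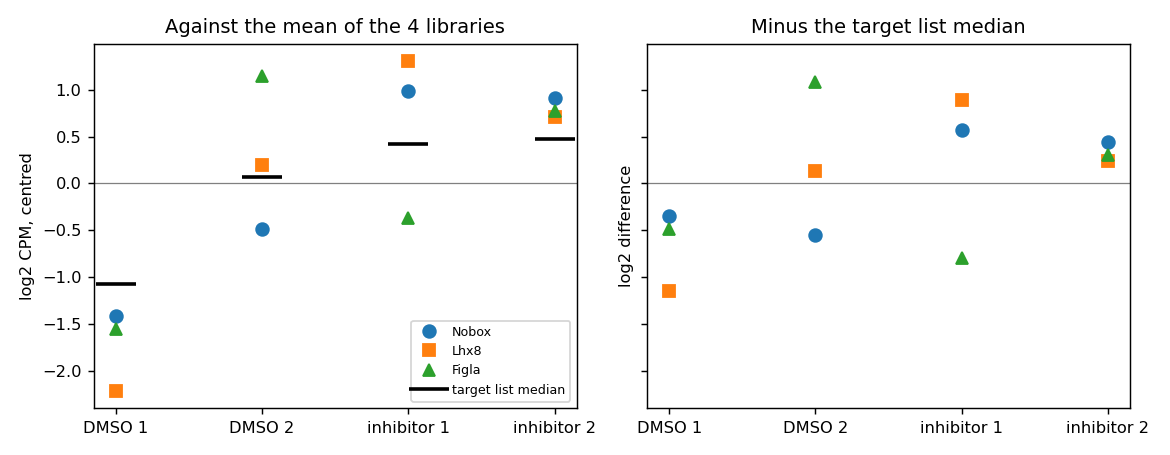
Left, log2 CPM of Nobox, Lhx8 and Figla in each library (horizontal axis), centred on the mean of the 4 libraries, with a bar at the centred median of the 20 target genes. Right, the same values minus that median, where Nobox lies at -0.35 and -0.55 in the DMSO libraries and at 0.57 and 0.44 in the inhibitor libraries.

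Of 12 partner genes, 11 were tested and 10 had a positive log2FC, against 51.5% of all tested genes. Their median was 0.43, against 0.043 over all tested genes. Without DMSO replicate 1, 7 of 11 were positive, with a median of 0.30 against 0.058 over all genes tested in that fit. The E proteins that pair with oocyte helix-loop-helix factors are encoded by Tcf3, Tcf4 and Tcf12. Tcf4 had 0.38 and 1.29 FPKM in control and 2.09 and 1.86 FPKM in treated embryos (log2FC 1.21, adjusted p = 0.391 by edgeR), while the log2FC was 0.16 for Tcf3 and 0.42 for Tcf12. The ID proteins, which bind E proteins and keep them from DNA, had their highest means over the 4 libraries for Id2, with 18.4 and 48.3 FPKM in control and 54.3 and 64.1 FPKM in treated embryos, and Id3, with 5.59 and 21.1 FPKM in control and 25.0 and 12.4 FPKM in treated embryos, although Id1 was above Id3 in 2 of 4 libraries. The log2FC was 0.74 for Id2, whose groups did not overlap, and 0.43 for Id3, whose groups did. Without DMSO replicate 1 the log2FC was 0.66 for Tcf4, -0.096 for Tcf3, 0.63 for Tcf12, 0.30 for Id2 and -0.16 for Id3. Of the cofactors of LIM homeodomain proteins, Ldb1 had a log2FC of 0.24 (-0.21 without DMSO replicate 1) and Ssbp2 one of 1.18 (standard error 0.44, adjusted p = 0.333 by edgeR). Ssbp2, at 2.63 and 5.57 FPKM in control and 10.2 and 9.69 FPKM in treated embryos, was the 1 partner gene with an unadjusted p under 0.05. Ldb2, the other LIM-binding factor, had 9 counts in DMSO replicate 2 and 0 in the other libraries.

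Of 11 other regulators of the oocyte, all were tested, and 7 had a positive log2FC and 4 a negative one. Their median was 0.61, and 0.13 without DMSO replicate 1, against 0.043 and 0.058 over all tested genes. Their groups did not overlap for 4 genes that were higher and 3 that were lower in treated embryos, shares near the 28.9% and 28.3% of all tested genes. Tbpl2, a TBP relative that directs transcription in growing oocytes, had 0 and 8.77 FPKM in control and 18.8 and 14.1 FPKM in treated embryos. Its log2FC of 1.89 (adjusted p = 0.541 by edgeR) was 0.91 without DMSO replicate 1, which listed it at 0 counts. Ybx2, an RNA-binding protein that stores maternal mRNA, had a log2FC of 1.03, with 9.19 and 18.1 FPKM in control and 31.1 and 28.6 FPKM in treated embryos. Taf4b, a subunit of the TFIID complex in germ cells, had 46.7 and 36.0 FPKM in control and 22.7 and 22.9 FPKM in treated embryos (log2FC -1.02, standard error 0.38, adjusted p = 0.333 by edgeR). The log2FC of Taf4b was -0.66 without DMSO replicate 1. By position Taf4b overlaps a processed pseudogene on the same strand, AC133172.1, whose part in these values was not tested. Dynll1 and Sub1, the most abundant of these genes, had 694 to 981 FPKM and 295 to 335 FPKM in control, and 507 to 596 FPKM and 252 to 259 FPKM in treated embryos. Their log2FC was -0.77 for Dynll1 and -0.46 for Sub1, with adjusted p-values of 0.396 and 0.554 by edgeR, and without DMSO replicate 1 it was -0.33 for Dynll1 and -0.21 for Sub1.

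**Figure D3:**
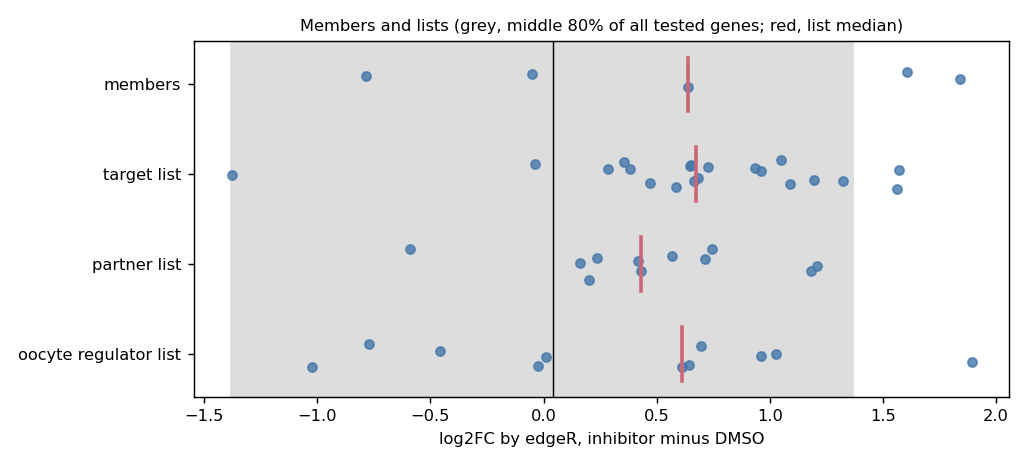
log2FC by edgeR (horizontal axis, treated minus control) of each tested gene, in rows for the 5 members, the target, partner and oocyte regulator lists, with a red line at each list's median and vertical scatter only to separate points. The grey band holds the middle 80% of all tested genes, from -1.38 to 1.37, and Nobox (1.84) and Lhx8 (1.60) lie above it.

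Of 11 LIM homeobox relatives of Lhx8, 5 were tested. Other than Isl2 and Lmx1a, they had at most 77 counts in any library, and Lhx3 and Lmx1b had 0 counts in all libraries. Lhx6, the closest relative of Lhx8, had 0.14 and 1.23 FPKM in control and 1.28 and 0.56 FPKM in treated embryos. Lmx1a had 206 counts in DMSO replicate 2 (3.70 FPKM) and at most 3 in any other library, and did not pass the filter. Isl2, singled out with Lmx1a after the values were seen, had 1.86 and 2.03 FPKM in control and 5.48 and 13.1 FPKM in treated embryos. By edgeR its log2FC was 2.11 with a standard error of 0.64, and the adjusted p was 0.333 by edgeR and 0.0498 by DESeq2. The span of Isl2 overlaps that of an antisense gene, Gm17226, and whether their exons overlap was not examined. Reads from any part the 2 genes share cannot be told apart, because the library kit does not mark strand.

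**Figure D4:**
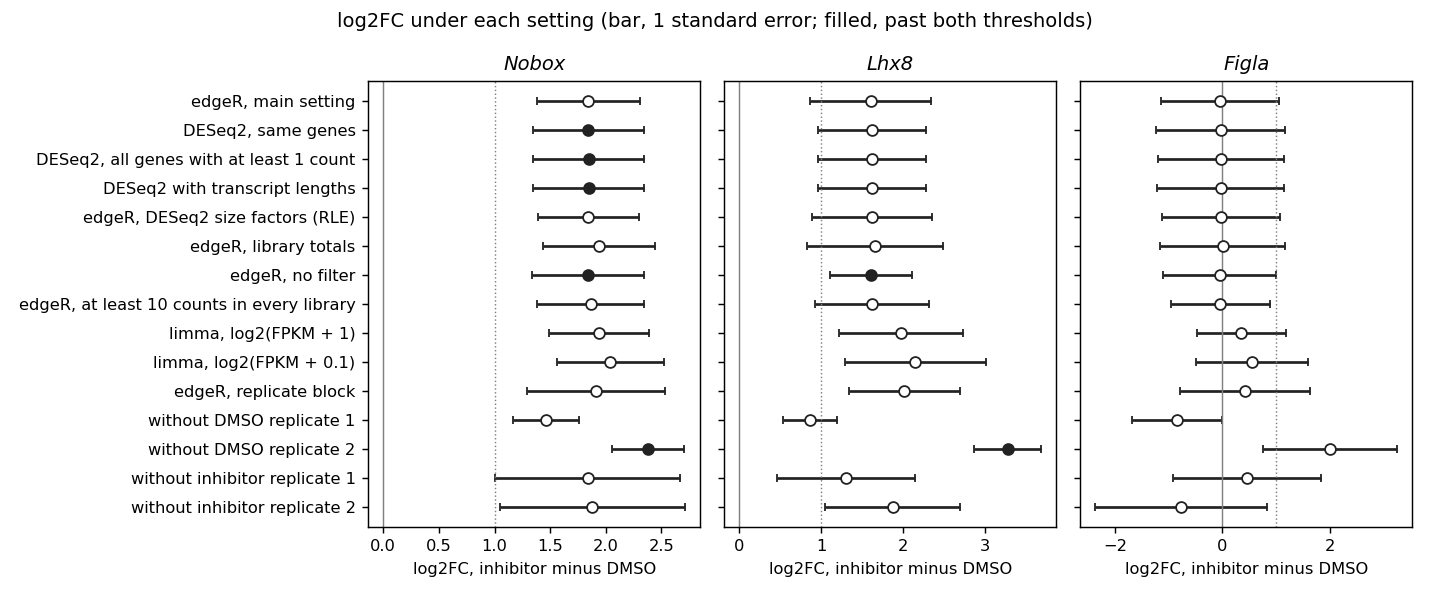
log2FC (horizontal axis, treated minus control) of Nobox, Lhx8 and Figla under each setting in rows, with bars of 1 standard error, filled points where both thresholds were passed, a solid line at 0 and a dotted line at 1. Nobox lies between 1.46 and 2.38 and Lhx8 between 0.86 and 3.28, whereas Figla lies on both sides of 0.

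Nobox kept a positive log2FC above 1 under all 14 alternatives and passed both thresholds in 5 of them, 3 of which were the DESeq2 settings. Lhx8 was positive in 14 of 14 and passed in 2, without the filter on low counts and without DMSO replicate 2. Without DMSO replicate 2 the control group is DMSO replicate 1 alone, assumed to vary like the treated libraries, and that fit called 2148 genes up and 2065 down of 14669, so its calls are no support for either gene. Figla was positive in 6 and negative in 8 of 14 alternatives. For Nobox and Lhx8 both treated libraries were above both control libraries. Their positive sign was therefore all but fixed, since every alternative refit these same libraries, and it adds no support. The 3 DESeq2 settings fit the same counts and are not separate support.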

How the data were processed

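RNA-seq libraries of DMSO-treated control and 10074-G5-treated late two-cell stage embryos (2 libraries per group, 10 embryos each) were grouped and numbered by their labels. The authors prepared the libraries with a SMART-Seq kit, mapped reads to mm10 with STAR (2.7.10) and kept unique alignments. The expected counts deposited by the authors are RSEM (1.3.3) estimates of fragments per gene, without normalization, and were rounded to whole numbers here. The TPM and FPKM deposited by the authors are scaled to effective length, TPM was not used further, and effective lengths entered 1 alternative. The paper calls the 2 libraries of each group biological replicates. Neither it nor the labels say that they came from separate fertilizations. The p-values therefore measure only the spread between these libraries, and its technical part is not known. PCR copies were counted as molecules, so limits from counts cover counting error only.

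Genes passing filterByExpr (minimum count 10, minimum total count 15) were scaled with TMM factors (0.873 to 1.06) and tested with edgeR 4.0.16 (R 4.3.3) with robust quasi-likelihood fits and Benjamini-Hochberg adjustment. CPM uses these factors. Log2 CPM for distances used a prior count of 2. Alternatives used DESeq2 1.42.0, limma 3.58.1 on log2(FPKM + 1) and log2(FPKM + 0.1) at a mean FPKM of at least 1, other normalizations and filters, a replicate block, and each library left out in turn. The methods were tested on simulated data. Positions come from GENCODE M21 (GRCm38, the same assembly as mm10). The members, the lists (from general knowledge), tests and the naming rule were chosen with earlier results of these data known. The rule named the 5 members, genes whose role is stated, the 2 genes of the target, partner and regulator lists with the smallest p and the 2 with the highest FPKM, and the 3 nearest genes of a member, those of Sohlh2 not being reported here.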

Additional observations from a re-analysis of the deposited data

How the results depend on the processing

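The log2FC of Nobox was between 1.84 and 2.04 and that of Lhx8 between 1.61 and 2.15 over the alternatives that kept all libraries. Nobox passed both thresholds with DESeq2 on the genes edgeR tested (1.84), without a filter (1.84) and with transcript lengths (1.85), and with edgeR without a filter (1.84), where Lhx8 (1.61) also passed. With each library left out in turn, Nobox ranged from 1.46 to 2.38 and Lhx8 from 0.86 to 3.28, and both passed only without DMSO replicate 2. Figla turned positive with library totals (0.0011), limma on log2(FPKM + 1) (0.35) and log2(FPKM + 0.1) (0.55) and the replicate block (0.42), and ranged from -0.85 to 2.01 with a library left out. Sohlh1 ranged from -1.87 to 8.00 and Sohlh2 from -8.29 to 2.28 with a library left out. The extreme values set 1 group near 0 counts and are no estimates of a fold. Neither Sohlh gene was tested at 10 counts in every library, and Sohlh2 was not tested by limma.

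Genes called up and down numbered 95 and 471 with DESeq2 on the genes edgeR tested, 87 and 437 without a filter, 83 and 429 with lengths, 165 and 479 with edgeR without a filter, and 12 and 32 with the replicate block. Left-out libraries gave 1 to 2148 up and 1 to 2065 down, the highest without DMSO replicate 2. The median of the target list ranged from 0.37 to 1.56 with a library left out, that of the partner list from 0.30 to 0.91 and that of the regulator list from 0.13 to 1.01. The regulator median was 0.040 at 10 counts in every library, where 9 of its genes were tested. Library totals moved the median of all genes from 0.043 to 0.17, and no list median changed sign. The replicate numbers do not pair the libraries by the labels, and the correlation of replicate differences between groups was -0.034 over tested genes. The cause of these shifts was not tested. A count of 0 allows up to 3 counts, which limits the values of Sohlh1 and Sohlh2 in 1 library each.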
